A study of Mus musculus with 12 samples.

Results

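The genes described here are 42 cell cycle and DNA replication genes, picked by symbol from a list of names. Each was found in every one of the 12 tables, which hold 23991 gene names each, and all 42 reached the expression filter that left 10126 genes to test. By role they fall into 5 G1 regulators, 2 CDK inhibitors, 6 genes of G1/S control, 12 genes of replication licensing and the replication fork, 4 genes of nucleotide supply and 13 genes of G2 and mitosis. The 22 genes of G1/S control, replication and nucleotide supply together are called the G1/S class below, and the 13 genes of G2 and mitosis the G2/M class.

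The cells were CD4+ T cells from male C57BL/6 mice aged 8 to 10 weeks, either wild type (WT) or Adcy10-/- (written KO), and they came from spleen or lymph nodes by magnetic depletion of other cells. The Adcy10 product, soluble adenylyl cyclase, is a source of cyclic AMP within cells. Per the labels, both genotypes were cultured under a Th17 protocol, in a baseline medium or in a medium with polarizing cytokines, and 3 libraries were made for each of the 4 groups of genotype and medium. The protocol gives plates coated with anti-CD3 at 10 µg/mL, soluble anti-CD28 at 2 µg/mL, IL-1β at 20 ng/mL, IL-6 at 25 ng/mL, IL-23 at 20 ng/mL and blocking antibodies to IFNγ and IL-4 at 1 µg/mL each, with RNA taken at 18 h. It does not say which of these the baseline medium held. The titles call all 4 groups Th17.

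A resting T cell must leave quiescence and pass G1 before it can copy its DNA. D-type cyclins with CDK4 or CDK6, and then cyclin E with CDK2, inactivate the retinoblastoma protein and free E2F factors. These switch on genes for origin licensing, the replication fork and nucleotide synthesis. Genes for mitotic entry, the spindle and the checkpoint rise later, in G2, under factors that bind the CCAAT box and the cell cycle homology region. In T cells the program is started by the antigen receptor together with CD28.

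Values are FPKM, fragments scaled for gene length and library size, as the authors deposited them, in libraries that summed to 547870 to 594750 FPKM. Differences are given on the scale of log2(FPKM + 1), which understates changes of low genes. Adcy10 itself was listed at 0 in all 12 libraries, WT and KO, so it checks no label. CD4 T cell markers (7 of 8 listed genes in the tables) summed to 1589 to 1980 FPKM and CD8 T cell markers (2 of 2) to 8.43 to 14.7. B cell markers (8 of 8) summed to 2.4 to 13.4 FPKM in the 4 libraries numbered 1 and to 30.6 to 88.8 in the 8 numbered 2 or 3. Those 4 libraries stand apart from the rest, and the counts of cytokine calls among the 42 genes and the phase balance are also given without them. The labels do not say whether replicates are separate animals, so p-values measure only the spread between these samples.

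At 18 h most replication genes and the D-type cyclins stood above the mitotic genes, but the classes overlapped. Cdc6, the lowest of the replication class, held 6.52 to 10.8 FPKM, and Cdc45 held 19 to 32.7. Pcna, the sliding clamp of DNA polymerase, held 312 to 405 FPKM over the 12 libraries and was the highest of the 42 genes. Cdk4, the partner of the D-type cyclins, held 280 to 319, whereas Cdk6, which pairs with the same cyclins, held 3.15 to 7.43. The D-type cyclins Ccnd2 and Ccnd3 held 119 to 190 and 90.5 to 121 FPKM. Of the 6 subunits of the MCM helicase, Mcm6 ranged from 136 to 182 FPKM and Mcm4 from 85.3 to 109. Cyclin E was carried by Ccne1 (15.2 to 24.3), with Ccne2 at 1.49 to 3.32 FPKM. Among the G2/M genes Top2a, the topoisomerase that untangles sister chromatids, was the highest at 19.6 to 35.5, and Bub1, a spindle checkpoint kinase, was the lowest at 1.76 to 3.8. The median gene of the replication class stood at 110 FPKM and that of the G2/M class at 10.1.

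The comparison of media asks whether the polarizing cytokines moved these genes at 18 h. In both genotypes the 12 replication genes, among them Pcna and Mcm5, had lower means with cytokines, by amounts that mostly lay within the spread between replicates. The mitotic genes were mixed: Plk1 and Ccnb2 were among 5 of 13 that were higher in 6 of 6 pairs, whereas Cdk1 was lower in 5 of 6 and Top2a in 4 of 6. A call below means a Benjamini-Hochberg adjusted p under 0.05 from limma over all 10126 genes. In the fit of 4 group means, averaged over genotypes, 1 of 42 passed (Pcna, lower), where 13.2% of all genes tested passed. In WT cells 0 of 42 passed (4.93% of all genes) and in KO cells 0 of 42 (4.27%). Libraries of the same genotype and replicate number deviated together, so the fit was repeated with each WT and KO number as a block, called the paired fit below. It passed 15 genes as lower and 7 as higher, 22 of 42, where it passed 26.7% of all genes (14.6% lower and 12.1% higher). In WT alone the paired fit passed 9 lower and 3 higher (15.5% of all genes; 7.5% lower and 8.05% higher), and in KO 10 lower and 3 higher (11.8%; 6.37% and 5.41%). Of the 12 genes passing in WT and the 13 in KO, 10 were the same, 83.3% and 76.9% of those lists: Ccnd2, Cdc25a, E2f1, Mcm3, Mcm5, Mcm6, Cdc45 and Pcna were lower, and Ccnb2 and Plk1 higher. With the libraries numbered 1 left out, a choice made after seeing the data, the paired fit averaged over genotypes passed 10 lower and 5 higher (17.8% of all genes), and the fit without a block passed 4, Cdc25a, Mcm3, Mcm5 and Cdc45, all lower (9.26%). A block of 3 numbers shared by both genotypes passed 12 lower and 2 higher (25.9%).

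**Figure D1:**
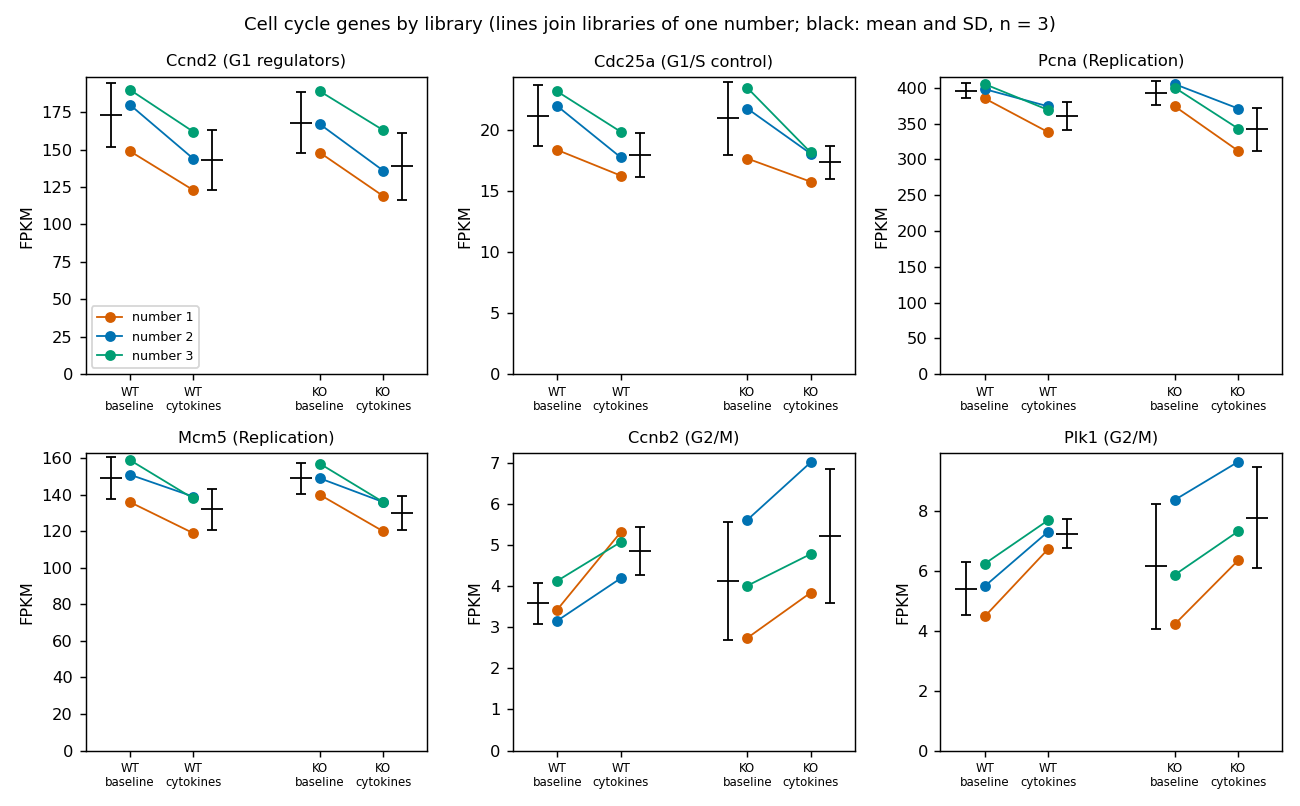
FPKM of 6 of the 42 genes in each of the 12 libraries, by genotype and medium, from 0 upward; coloured lines join libraries of 1 replicate number, and black bars are the group mean and SD (n = 3). Ccnd2, Cdc25a, Pcna and Mcm5 slope down with cytokines on all 6 lines each, and Ccnb2 and Plk1 slope up on all 6.

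Among the G1 regulators, the gene of cyclin D2 fell in the paired fit with and without the libraries numbered 1, and that of cyclin D3 rose only with them. Ccnd2 stood at 149, 180 and 190 FPKM in the WT baseline libraries (numbers 1, 2 and 3) and at 123, 144 and 162 in WT with cytokines. In KO cells the values were 148, 167 and 189 at baseline and 119, 136 and 163 with cytokines. It was lower with cytokines in 6 of 6 pairs of the same genotype and number, while the groups of 3 overlapped. Ccnd2 averaged 173 ± 21.5 and 143 ± 19.9 FPKM in WT (SD, n = 3) and did not pass without the block (log2 difference of -0.27, SE 0.10, 95% interval -0.49 to -0.06, adjusted p = 0.0965). It fell in the paired fit, with the smallest adjusted p of the 42 genes (SE 0.03, adjusted p = 0.000185). Ccnd3 stood at 98.6, 95.7 and 113 FPKM in the WT baseline libraries and at 117, 121 and 119 in WT with cytokines. KO baseline libraries gave 90.5, 114 and 110, and KO libraries with cytokines 117, 111 and 118. Every WT library with cytokines lay above every WT baseline library, and the KO groups overlapped. Ccnd3, the cyclin that lymphocytes use for rapid expansion, gave a log2 difference of 0.18, SE 0.06, 95% interval 0.05 to 0.31, adjusted p = 0.0691, and it rose in the paired fit (SE 0.05, adjusted p = 0.0355). Without the libraries numbered 1 the Ccnd3 call was lost (log2 difference 0.12, paired adjusted p = 0.131), and that of Ccnd2 held (-0.26, paired adjusted p = 0.00113). Cdk4 did not pass in either fit (log2 difference of 0.00, SE 0.04, 95% interval -0.09 to 0.09, adjusted p = 0.995), nor did Cdk6 (log2 difference of 0.18, SE 0.16, 95% interval -0.16 to 0.53, adjusted p = 0.519) or E2f3, an activating E2F (log2 difference of -0.17, SE 0.09, 95% interval -0.36 to 0.02, adjusted p = 0.244).

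The genes of the CDK inhibitors p21 and p27 did not pass in either fit of all 12 libraries. Cdkn1a, which encodes p21, a target of p53, held 6.42 ± 0.838 and 7.67 ± 0.875 FPKM in the WT media and 6.42 ± 1.35 and 6.54 ± 0.753 in the KO media (SD, n = 3). Averaged over genotypes this was a log2 difference of 0.13, SE 0.10, 95% interval -0.08 to 0.34, adjusted p = 0.446. Cdkn1b, which encodes p27, the inhibitor that keeps resting T cells out of the cycle, gave a log2 difference of 0.14, SE 0.11, 95% interval -0.10 to 0.37, adjusted p = 0.47, with a paired adjusted p of 0.0821. Without the libraries numbered 1, where Cdkn1b stood highest, it passed as higher with cytokines in the paired fit (0.20, SE 0.06, adjusted p = 0.0365).

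Of the 6 genes of G1/S control, Cdc25a and E2f1 fell in the paired fit and the other 4 did not pass. Cdc25a stood at 18.4, 22 and 23.2 FPKM in the WT baseline libraries and at 16.3, 17.8 and 19.9 in WT with cytokines. For KO, 17.7, 21.8 and 23.5 were measured at baseline and 15.8, 18.1 and 18.2 with cytokines. Cdc25a, a phosphatase that removes the inhibitory phosphate from CDK2, was lower in 6 of 6 pairs, although the groups overlapped in both genotypes. Without the block it did not pass (log2 difference of -0.24, SE 0.08, 95% interval -0.42 to -0.06, adjusted p = 0.0786), and in the paired fit it did (SE 0.04, adjusted p = 0.00186). E2f1 stood at 17.4, 19.9 and 20.2 FPKM in the WT baseline libraries and at 14.3, 16.8 and 18.9 in WT with cytokines. The KO libraries held 16.3, 20.9 and 20.5 at baseline and 14.3, 19 and 16.3 with cytokines. E2f1, an activator of S phase genes, was likewise lower in 6 of 6 pairs, with overlapping groups (log2 difference of -0.20, SE 0.09, 95% interval -0.40 to 0.00, adjusted p = 0.182; paired SE 0.04, adjusted p = 0.00555). Cdk2, the kinase that Cdc25a acts on, and Ccne1, which encodes its cyclin partner, differed by -0.01 and 0.01 with intervals of -0.11 to 0.09 and -0.24 to 0.25. Ccne2 and E2f2 differed by -0.15 and 0.02 and did not pass either.

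All 12 replication genes had an averaged difference below 0 (median -0.17, against -0.02 over all genes tested), and 10 of the 12 were lower in 6 of 6 pairs, where 16.4% of all genes were. They stayed below 0 under each of the 25 settings tried. The blocks, the filters and the variance trend cannot move these differences, so the settings are not 25 separate checks. Pcna stood at 385, 398 and 405 FPKM in the WT baseline libraries and at 338, 374 and 369 in WT with cytokines. In KO cells the values were 374, 405 and 400 at baseline and 312, 371 and 343 with cytokines. The KO libraries with cytokines all lay below the KO baseline ones, and the same held in WT. Pcna fell by 11.1% on the FPKM + 1 scale (log2 difference of -0.17, SE 0.05, 95% interval -0.27 to -0.07, adjusted p = 0.0334; paired SE 0.03, adjusted p = 0.00264). Its call without the block rested on single libraries: with 1 library left out at a time it passed in 5 of 12 fits (adjusted p 0.014 to 0.0787). It was lost without number 2 or 3 of WT baseline or KO baseline, without number 1 of WT or KO with cytokines and without number 3 of KO with cytokines.

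Most subunits of the helicase and its loaders fell in the paired fit. Mcm5 stood at 136, 151 and 159 FPKM in the WT baseline libraries and at 119, 139 and 138 in WT with cytokines. KO baseline libraries gave 140, 149 and 157, and KO libraries with cytokines 120, 136 and 136. Mcm5 groups did not overlap in KO and did overlap in WT. It gave a log2 difference of -0.18, SE 0.06, 95% interval -0.31 to -0.05, adjusted p = 0.0616, and fell in the paired fit (SE 0.03, adjusted p = 0.0015). Mcm3, Mcm6 and Mcm7, which sit in the same ring, fell in the paired fit too, with log2 differences of -0.17, -0.17 and -0.16 and paired adjusted p of 0.00319, 0.00456 and 0.00461. Mcm4 fell by 0.07 on the log2 scale (paired adjusted p = 0.0473), and Mcm2 did not pass (-0.07, paired adjusted p = 0.0908). Cdc6 and Cdt1, which load the ring on origins, fell by 0.20 and 0.10 on the log2 scale (paired adjusted p = 0.00553 and 0.042).

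Cdc45 stood at 27.7, 27.3 and 32.7 FPKM in the WT baseline libraries and at 19.7, 24.9 and 25.7 in WT with cytokines. For KO, 22.4, 29.9 and 30.2 were measured at baseline and 19, 24.8 and 26 with cytokines. Cdc45, which joins the MCM ring to form the active helicase, had the largest averaged decrease of the replication genes (log2 difference of -0.27, SE 0.10, 95% interval -0.50 to -0.05, adjusted p = 0.114; paired SE 0.04, adjusted p = 0.00238). Its WT groups did not overlap. Gins1 and Gins2 belong to the GINS complex of the same helicase. Gins1 fell in the paired fit by 0.17 on the log2 scale (adjusted p = 0.0349), and Gins2 did not pass (-0.06, adjusted p = 0.326). Over both genotypes, replication genes whose groups did not overlap were Cdt1, Cdc45, Gins1 and Pcna in WT and Mcm5, Mcm7 and Pcna in KO. Among all genes 10.3% in WT and 12.3% in KO were lower without overlap.

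The 4 genes of nucleotide supply all had averaged differences below 0, with a median of -0.10. Tk1 stood at 30.1, 26.5 and 27.1 FPKM in the WT baseline libraries and at 23.2, 22.3 and 26.2 in WT with cytokines. The KO libraries held 25.9, 29.8 and 28.6 at baseline and 20, 29.1 and 22.9 with cytokines. Tk1, the thymidine kinase of the salvage route, fell in the paired fit (log2 difference of -0.22, SE 0.08, 95% interval -0.40 to -0.05, adjusted p = 0.101 without the block; paired SE 0.05, adjusted p = 0.0146), and its WT groups did not overlap. Rrm1, the large subunit of ribonucleotide reductase, fell by 0.09 on the log2 scale in the paired fit (adjusted p = 0.041). Its small subunit Rrm2 and the thymidylate synthase gene Tyms differed by -0.12 and -0.04 and did not pass (paired adjusted p = 0.0678 and 0.517).

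The G2/M genes split into some that were higher with cytokines and others near 0. Averaged over genotypes 9 of 13 lay above 0 (median 0.16), a count that was 13 without KO baseline 2 or KO cytokines 1 and 7 without KO baseline 1 or KO cytokines 2, and 5 of 13 were higher in 6 of 6 pairs, where 13.2% of all genes were; 0 of 13 were lower in 6 of 6. Plk1 stood at 4.48, 5.49 and 6.24 FPKM in the WT baseline libraries and at 6.73, 7.31 and 7.69 in WT with cytokines. In KO cells the values were 4.22, 8.37 and 5.87 at baseline and 6.35, 9.64 and 7.32 with cytokines. Plk1, the kinase that drives mitotic entry, was higher in every pair, and its WT groups did not overlap. Without the block it did not pass (log2 difference of 0.34, SE 0.14, 95% interval 0.04 to 0.65, adjusted p = 0.132), and it rose in the paired fit (SE 0.05, adjusted p = 0.00191). Ccnb2 stood at 3.43, 3.16 and 4.13 FPKM in the WT baseline libraries and at 5.31, 4.19 and 5.07 in WT with cytokines. KO baseline libraries gave 2.74, 5.61 and 4.01, and KO libraries with cytokines 3.84, 7.01 and 4.78. Ccnb2, a B-type cyclin singled out after its values were seen, had groups that did not overlap in WT and did in KO. It gave a log2 difference of 0.32, SE 0.15, 95% interval 0.00 to 0.65, adjusted p = 0.198 and rose in the paired fit (SE 0.05, adjusted p = 0.00209).

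Aurka, the kinase of spindle poles, rose in the paired fit as well. Aurka stood at 6.47, 6.88 and 7.46 FPKM in the WT baseline libraries and at 8, 8.42 and 9.35 in WT with cytokines. For KO, 6.42, 9.41 and 7.26 were measured at baseline and 7.75, 10 and 7.67 with cytokines. Its WT groups did not overlap, and its KO groups did (log2 difference of 0.20, SE 0.09, 95% interval 0.00 to 0.40, adjusted p = 0.182; paired SE 0.04, adjusted p = 0.00551). Ccnb1, Cdc20 and Birc5 rose by 0.26, 0.16 and 0.18 in that fit (adjusted p = 0.0101, 0.0445 and 0.034). They encode the main mitotic cyclin, the activator of the anaphase-promoting complex and survivin. With the block shared by both genotypes only Plk1 of the 13 passed (adjusted p = 0.0182), and adjusted p of Ccnb2 was then 0.109. Ccna2, Cdk1, Mki67, Top2a, Aurkb, Bub1 and Bub1b passed in no fit of the cytokine effects above, with averaged differences of -0.07 (Cdk1) to 0.16 (Mki67). Among all genes 10.5% in WT and 9.28% in KO were higher without overlap, against Ccnd3, Ccnb2, Aurka and Plk1 in WT and 0 of the 42 in KO.

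**Figure D2:**
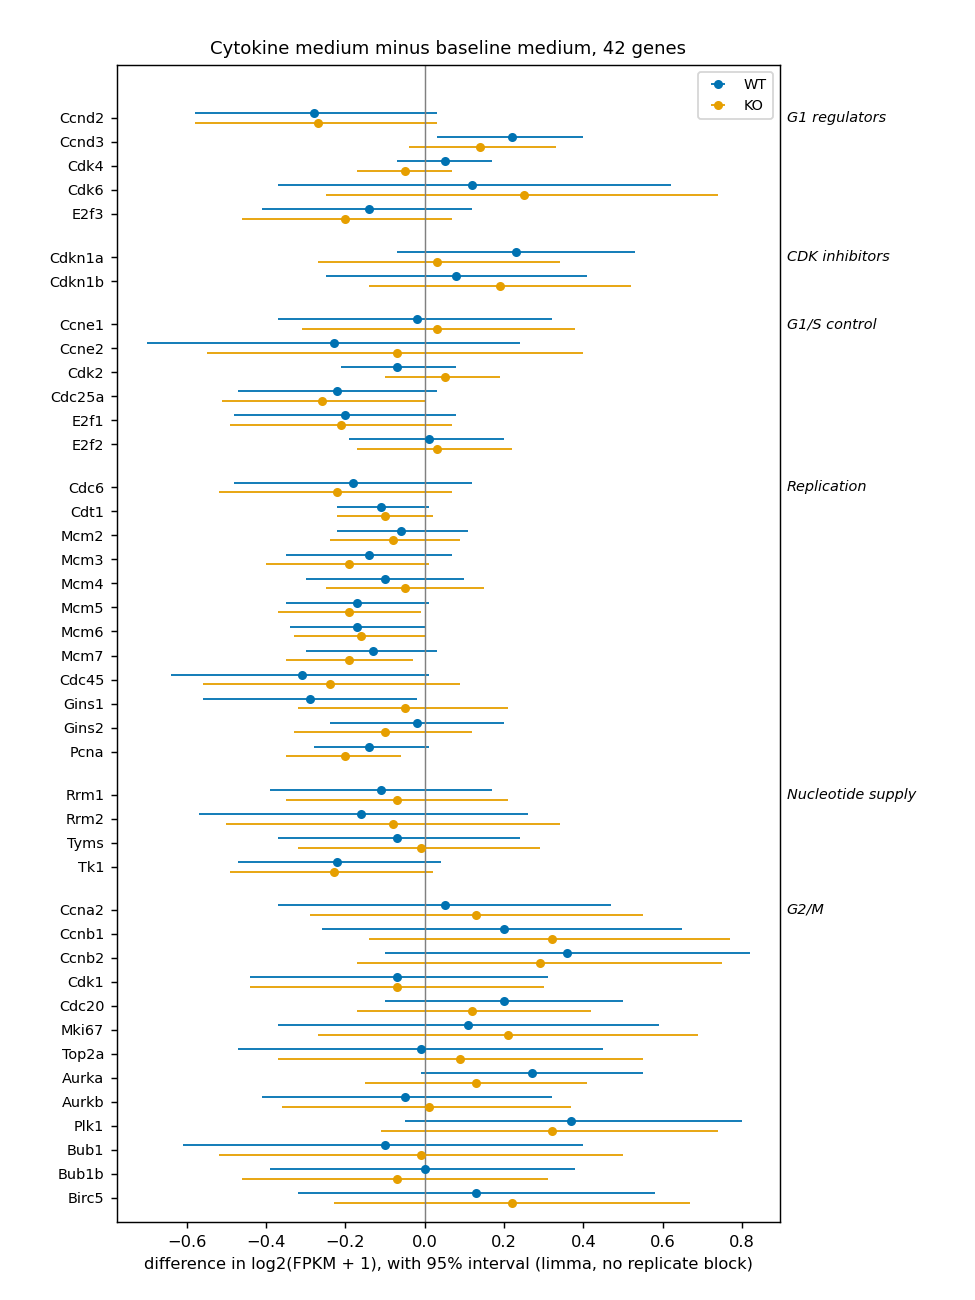
Difference between cytokine and baseline medium in log2(FPKM + 1) for the 42 genes by class, in WT (blue) and KO (orange), with 95% intervals from limma without a block (n = 3 per group). All 12 replication genes lie left of 0 in both genotypes, and most intervals include 0.

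Other changes between media stood beside these. The summed level of 4 markers of naive T cells was lower with cytokines in 6 of 6 pairs, at 657 to 971 FPKM at baseline and 566 to 806 with cytokines, and 4 activation markers summed higher in 5 of 6 pairs (284 to 365 and 320 to 380). Of those 4 only Il2ra was higher in every pair, and Cd69 and Cd44 were lower in every pair. The sum of 8 B cell markers was higher with cytokines in 1 of 6 pairs (2.4 to 88.8 and 3 to 51.3), with Pax5 at 0 in 1 library. The sum of 7 of 8 listed macrophage and dendritic cell markers was higher in 6 of 6 (15.4 to 66 and 21.5 to 103). That of 4 of 5 neutrophil markers was higher in 5 of 6 (1.21 to 19.3 and 0.911 to 60.2), with Elane at 0 in 1 library. The neutrophil markers did not move together. S100a8 was higher in every pair, whereas mean Mpo was lower with cytokines (1.39 and 0.635 FPKM in the WT media, 0.51 and 0.271 in the KO media). NK cell markers (3 of 3) summed to 0.256 or less in every library, and red cell markers (5 of 5) were higher with cytokines in 3 of 6 pairs. Their part in the cell cycle values was not tested. In bulk RNA, fewer cells in a phase and less of a transcript per cell cannot be told apart.

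To compare the phases within a library, the mean log2(FPKM + 1) of the 22 G1/S genes was subtracted from that of the 13 G2/M genes. The 22 and 13 genes were grouped with earlier results known, so the value is a description. It stood at -2.01, -1.99 and -1.85 in WT baseline and at -1.70, -1.78 and -1.62 in WT with cytokines. KO libraries held -2.12, -1.68 and -1.91 at baseline and -1.76, -1.52 and -1.69 with cytokines. Within a genotype and number the balance moved toward G2/M in all 6 pairs, by 0.31, 0.21 and 0.24 in WT and by 0.36, 0.17 and 0.22 in KO. The WT groups did not overlap and the KO groups did, with KO number 2 the highest of its group in both media. Both parts of the balance moved. The G1/S mean was lower in all 6 pairs by 0.07 to 0.19, and the G2/M mean was higher in all 6 by 0.06 to 0.23. The G2/M mean is not the course of every mitotic gene: 9 of 13 had an averaged difference above 0 and 4 below it. Cdk1 was lower in 5 of 6 pairs. A list of 61 further mitotic genes, given below, did not share the shift: the paired fit passed 7 higher and 11 lower (29.5%, beside 26.7% of all genes). The group means were -1.95 ± 0.08 and -1.70 ± 0.08 in WT and -1.90 ± 0.22 and -1.65 ± 0.12 in KO (SD, n = 3). Without the libraries numbered 1 the mean shift was 0.21, beside 0.25 with them.

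**Figure D3:**
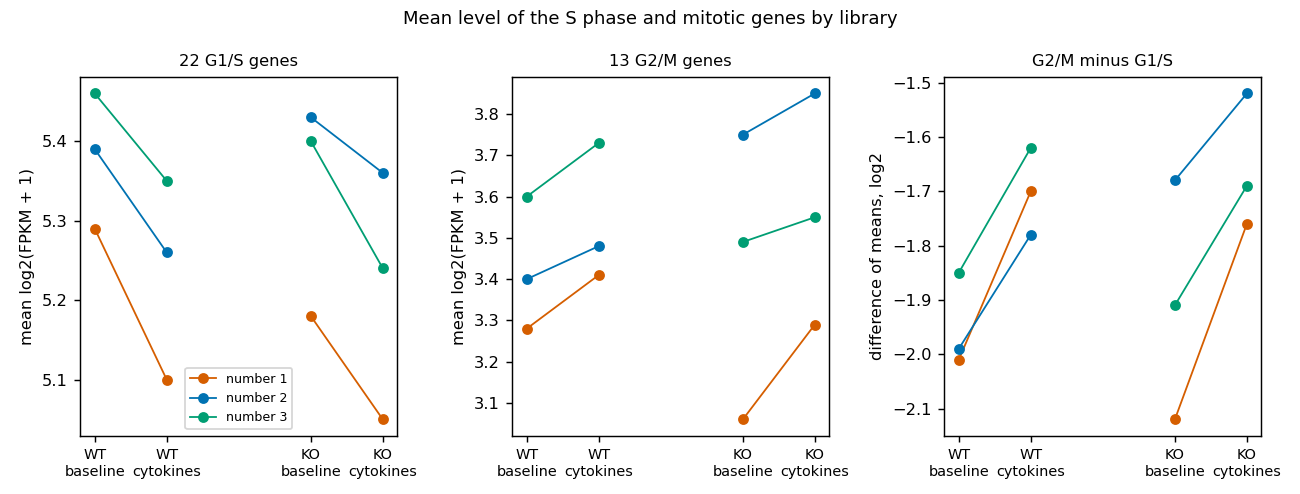
Mean log2(FPKM + 1) of the 22 G1/S genes (left), of the 13 G2/M genes (middle) and their difference (right) in each library; lines join libraries of 1 replicate number, and the axes do not start at 0. Lines of the G1/S genes slope down and lines of the G2/M genes and of the difference slope up in all 6 pairs.

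The start regions of these genes were searched for the elements named above, as a description. Whether those elements bear on the changes between media was not tested. RefSeq windows (build GRCm38.p6) were found for 35 of the 42 genes: Aurkb, Ccna2, Ccnd2, Ccne2, Gins1, Gins2 and Mcm4 had none in the table. The 250 bases upstream of each start were searched on both strands for 4 E2F words (TTTCCCGC, TTTGGCGC, TTTCGCGC and TTTGCCGC), for the CCAAT box that NF-Y binds, and for TTTGAA, the core of the cell cycle homology region. The windows of Mcm6, Cdc25a and Ccnb2 are printed 5′ to 3′ along the gene's strand with matches in capitals. They were picked for their matches. Mcm6 holds the most E2F words of the S phase genes that fell, and Cdc25a joins an E2F word to CCAAT boxes. Ccnb2 holds CCAAT boxes and a TTTGAA match.
Mcm6, chr1:128359706-128359955, minus strand: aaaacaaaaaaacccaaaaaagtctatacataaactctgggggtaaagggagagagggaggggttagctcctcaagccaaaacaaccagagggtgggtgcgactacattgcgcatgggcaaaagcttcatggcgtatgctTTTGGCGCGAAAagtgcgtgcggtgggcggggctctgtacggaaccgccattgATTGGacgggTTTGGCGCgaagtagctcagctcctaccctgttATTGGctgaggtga
Cdc25a, chr9:109875329-109875578, plus strand: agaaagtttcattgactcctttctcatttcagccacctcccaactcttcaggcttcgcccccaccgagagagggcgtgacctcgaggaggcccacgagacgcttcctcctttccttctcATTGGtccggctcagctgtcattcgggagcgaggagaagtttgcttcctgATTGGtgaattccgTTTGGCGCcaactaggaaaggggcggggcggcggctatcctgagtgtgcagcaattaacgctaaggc
Ccnb2, chr9:70421555-70421804, minus strand: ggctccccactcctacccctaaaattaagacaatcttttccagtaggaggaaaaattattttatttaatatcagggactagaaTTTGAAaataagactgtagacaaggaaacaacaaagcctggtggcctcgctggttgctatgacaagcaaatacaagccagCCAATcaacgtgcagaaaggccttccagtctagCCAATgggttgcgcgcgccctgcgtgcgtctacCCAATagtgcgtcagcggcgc
In Mcm6, 2 of the 3 E2F matches overlap in the longest run of capitals and begin 110 and 106 bases before the start, and the third begins 47 bases before it. Its 2 CCAAT boxes lie on the opposite strand and read ATTGG. Cdc25a holds 1 E2F word, beginning 67 bases before the start, and 2 CCAAT boxes on the opposite strand. Ccnb2 holds 3 CCAAT boxes that begin 87, 54 and 21 bases before the start, and 1 TTTGAA match that begins at 167.

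Over the matched genes, an E2F word stood in 6 of 18 G1/S genes (33.3%) and in 1 of 11 G2/M genes (9.09%). The share was 2.16% over the 27025 genes in the table. That table was not limited to the 10126 genes tested here, whereas all matched genes passed the expression filter, so the sets are unlike. A CCAAT box stood in 10 of 11 G2/M genes (90.9%) and in 12 of 18 G1/S genes (66.7%), beside 37.5% of all genes. At least 2 boxes were found in 8 of 11 G2/M genes (72.7%), in 7 of 18 G1/S genes (38.9%) and in 11.5% of all. TTTGAA stood in 5 of 11 G2/M genes (45.5%), in 3 of 18 G1/S genes (16.7%) and in 18.3% of all genes. Of the G2/M genes that rose in the paired fit, Ccnb2 and Cdc20 held TTTGAA, and Plk1, Aurka, Ccnb1 and Birc5 did not. Cdk1, Mki67 and Top2a held 2 such matches each and did not pass. Of the G1/S genes that fell, Cdc25a, Cdc6, Mcm5, Mcm6 and Mcm7 held an E2F word. Cdt1, Mcm3, Cdc45, Pcna, Rrm1 and Tk1 held none, and Cdk2 held 1 without passing. The only E2f1 window held none either, but it overlaps coding sequence of that gene and so does not describe its promoter. An E2f2 window also overlaps coding sequence. It alone gives E2f2 its TTTGAA match and its place among the G1/S genes with at least 2 boxes. These are matches of letters and not measured binding, and some genes have more than 1 window.

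Libraries numbered 1 held less of most of these genes than the others. With the group means in the model, 30 of 42 genes differed between the numbers 1, 2 and 3 (limma F test, adjusted p under 0.05), where 29.8% of all genes did. This test counts the baseline and cytokine libraries of a genotype and number as separate, although they deviated together. The test was repeated with the 2 media averaged first, which leaves 2 units per number and was chosen after seeing the data. It passed 7 of 42 (9.42% of all genes): Ccnd2, Cdk6, Cdkn1b, Cdc25a, Mcm3, Mcm5 and Cdc45. The counts in the rest of this paragraph come from the 12 separate libraries. Number 2 stood above number 1 for 28 genes (11.7% of all genes were called higher) and below it for Cdkn1b alone (9.92% lower). Number 3 stood above number 1 for 28 genes (20.1%) and below it again for Cdkn1b alone (10.6%). Between numbers 3 and 2, 0 of 42 passed (0.128% of all genes). Number 1 was the lowest of the 3 libraries in 4 of 4 groups for 26 of the 42 genes, beside 16.2% of all genes, and the highest in 4 of 4 for Cdkn1b alone, beside 10.4%. Without KO cytokines number 1 the count of 30 dropped to 19. With the media averaged, which leaves fewer units, fewer genes passed as above number 1 in either comparison, and Cdkn1b still passed as below it in each.

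Cdkn1b stood at 17, 12.6 and 11.1 FPKM in the WT baseline libraries and at 16.4, 12.6 and 13.8 in WT with cytokines. The KO libraries held 16.3, 12.9 and 12 at baseline and 17.1, 15.3 and 14.7 with cytokines. Libraries numbered 1 thus held 16.3 to 17.1 FPKM of the p27 gene and all others 11.1 to 15.3 (number 2 minus 1 -0.31, number 3 minus 1 -0.36, limma F test, adjusted p = 0.00502). Mcm3 stood at 154, 173 and 177 FPKM in the WT baseline libraries and at 133, 162 and 163 in WT with cytokines. In KO cells the values were 157, 172 and 179 at baseline and 133, 158 and 153 with cytokines. Mcm3 was the G1/S gene with the smallest p in this test (number 2 minus 1 0.21, number 3 minus 1 0.22, limma F test, adjusted p = 0.0024), and Cdc25a (number 2 minus 1 0.21, number 3 minus 1 0.29, limma F test, adjusted p = 0.00297) and Mcm5 (number 2 minus 1 0.16, number 3 minus 1 0.19, limma F test, adjusted p = 0.00384) followed. Ccnd2, with the smallest p of all 42, differed too (2 minus 1 0.21, 3 minus 1 0.39, limma F test, adjusted p = 0.000407).

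Top2a stood at 25.1, 28.9 and 34.2 FPKM in the WT baseline libraries and at 24.9, 27.5 and 35.5 in WT with cytokines. KO baseline libraries gave 19.6, 35 and 31.7, and KO libraries with cytokines 24.3, 34.3 and 31.6. Top2a had the smallest p of the G2/M genes (number 2 minus 1 0.41, number 3 minus 1 0.49, limma F test, adjusted p = 0.00934), before Bub1 (number 2 minus 1 0.50, number 3 minus 1 0.49, limma F test, adjusted p = 0.0112) and Bub1b, which encodes the checkpoint kinase BubR1 (number 2 minus 1 0.31, number 3 minus 1 0.42, limma F test, adjusted p = 0.012). With the media averaged, Top2a, Bub1 and Bub1b did not pass the F test, though they passed between numbers 3 and 1. For all 13 G2/M genes, WT number 3 exceeded WT number 2 in both media, and KO number 2 exceeded KO number 3 in both media. Among all genes 39.1% and 26.9% did so. This last pattern was noticed in the values and was not fixed beforehand, and the 13 genes share the same libraries. KO cytokines number 2 held the most Plk1 (9.64), Ccnb1 (14.1) and Birc5 (32.6 FPKM) of the 12 libraries.

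Other markers moved with the numbers. B cell markers summed to 2.4 to 13.4 FPKM in number 1, 30.6 to 88.8 in number 2 and 38.2 to 60 in number 3. Naive T cell markers summed to 798 to 971, 566 to 705 and 603 to 758, and CD4 T cell markers to 1908 to 1980, 1638 to 1903 and 1589 to 1773. The 5 red cell markers summed to 16.5 to 131 in number 3 and to 0.638 to 2.96 in the other 8 libraries. Their part in the cell cycle differences was not tested, and the labels do not say what a number stands for.

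**Figure D4:**
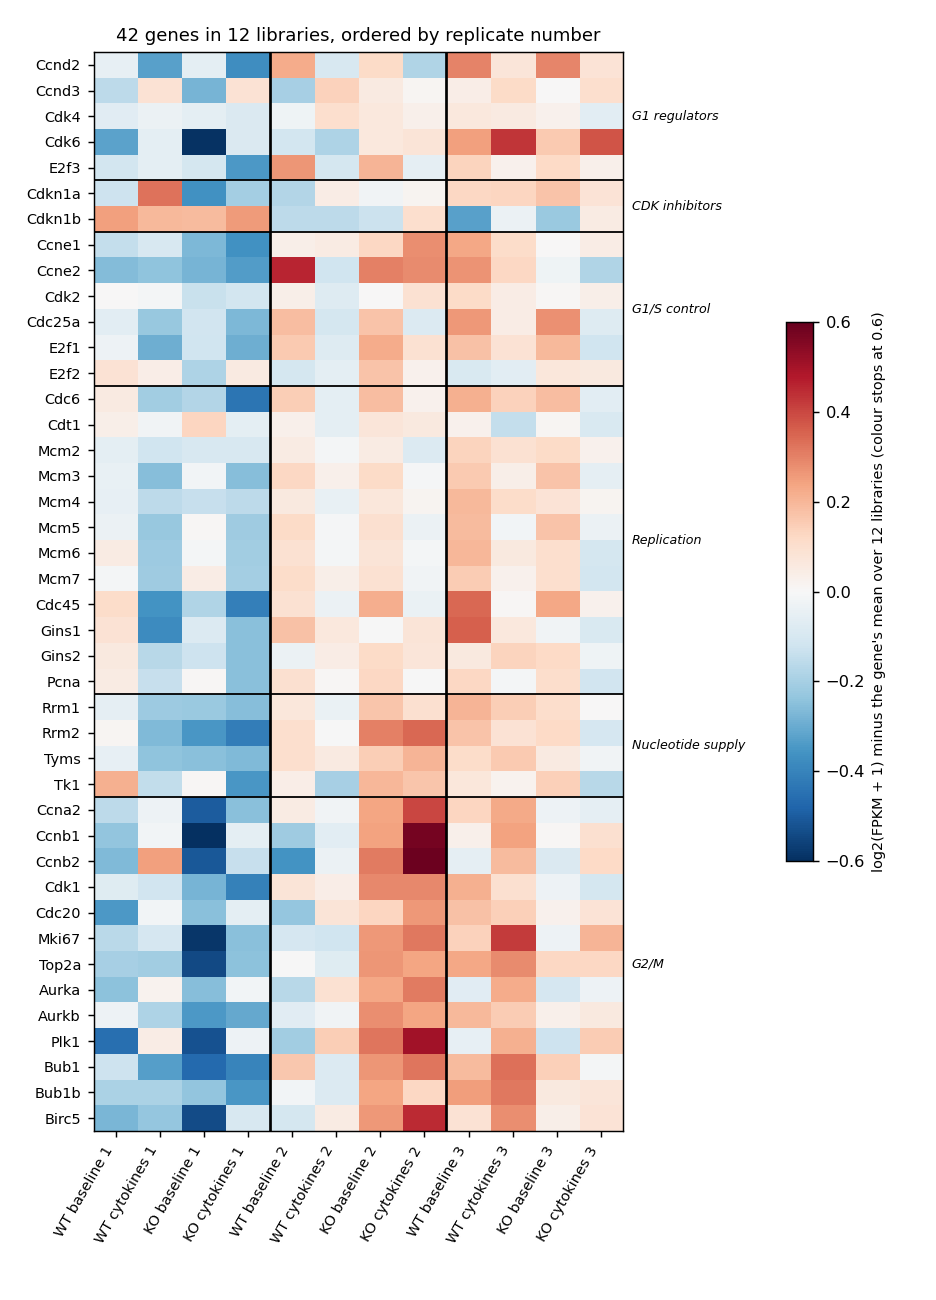
Log2(FPKM + 1) of each of the 42 genes minus its mean over 12 libraries, with libraries ordered by replicate number (vertical lines) and genes by class (horizontal lines); red is above the mean, blue below, and the colour stops at 0.6. The 4 libraries numbered 1 are blue for most genes and red for Cdkn1b, and the G2/M block is reddest in KO number 2.

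The comparison of genotypes asks whether loss of Adcy10 altered the cell cycle genes. None of the 42 passed: 0 of 42 at baseline, with cytokines, averaged over media and in the interaction, where limma passed 0.0% of all genes in each. At an unadjusted p under 0.05 the counts were likewise 0 of 42 in each comparison, beside 118, 202, 180 and 112 of the 10126 genes. With the shared replicate block 0 of 42 passed in each, and over all genes 0, 0, 3 and 0 did (0.0296% averaged over media). KO minus WT lay between -0.24 and 0.13 at baseline, and 95% intervals of the 42 genes reached from -0.63 to 0.59. With cytokines it lay between -0.20 and 0.15, with intervals reaching from -0.51 to 0.60. The medians over the 42 genes were -0.02 and -0.01. Differences inside these limits could not be resolved with 3 libraries a group.

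Gins1 stood at 24.9, 26.6 and 30.3 FPKM in the WT baseline libraries and at 17.8, 24.5 and 24.5 in WT with cytokines. For KO, 22.1, 23.4 and 23.1 were measured at baseline and 19.5, 24.8 and 21.9 with cytokines. Gins1 was the 1 gene of the 42 whose genotype groups did not overlap, lower in KO at baseline, beside 2.42% of all genes. None was higher without overlap at baseline (2.57% of all genes), and with cytokines none was lower (3.4%) or higher (1.68%). It did not pass (log2 difference of -0.24, SE 0.12, 95% interval -0.51 to 0.03, adjusted p = 1), and with cytokines its difference was 0.00 (interval -0.27 to 0.26). Pcna differed by -0.01 at baseline (interval -0.15 to 0.13) and by -0.08 with cytokines (-0.22 to 0.07). Plk1 differed by 0.13 (-0.30 to 0.55) and 0.07 (-0.35 to 0.50). The balance of G2/M over G1/S genes differed by 0.05 between genotypes in each medium, against an SD of 0.14 between libraries of a group. Without the libraries numbered 1 the difference was 0.13 at baseline and 0.10 with cytokines, and with 1 library left out it ranged from -0.06 to 0.16 and from -0.02 to 0.10, so that its sign depended on the library. The interaction, which asks whether the cytokine effect itself differed between genotypes, ranged from -0.19 (Cdkn1a) to 0.24 (Gins1), and intervals reached from -0.72 to 0.83.

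**Figure D5:**
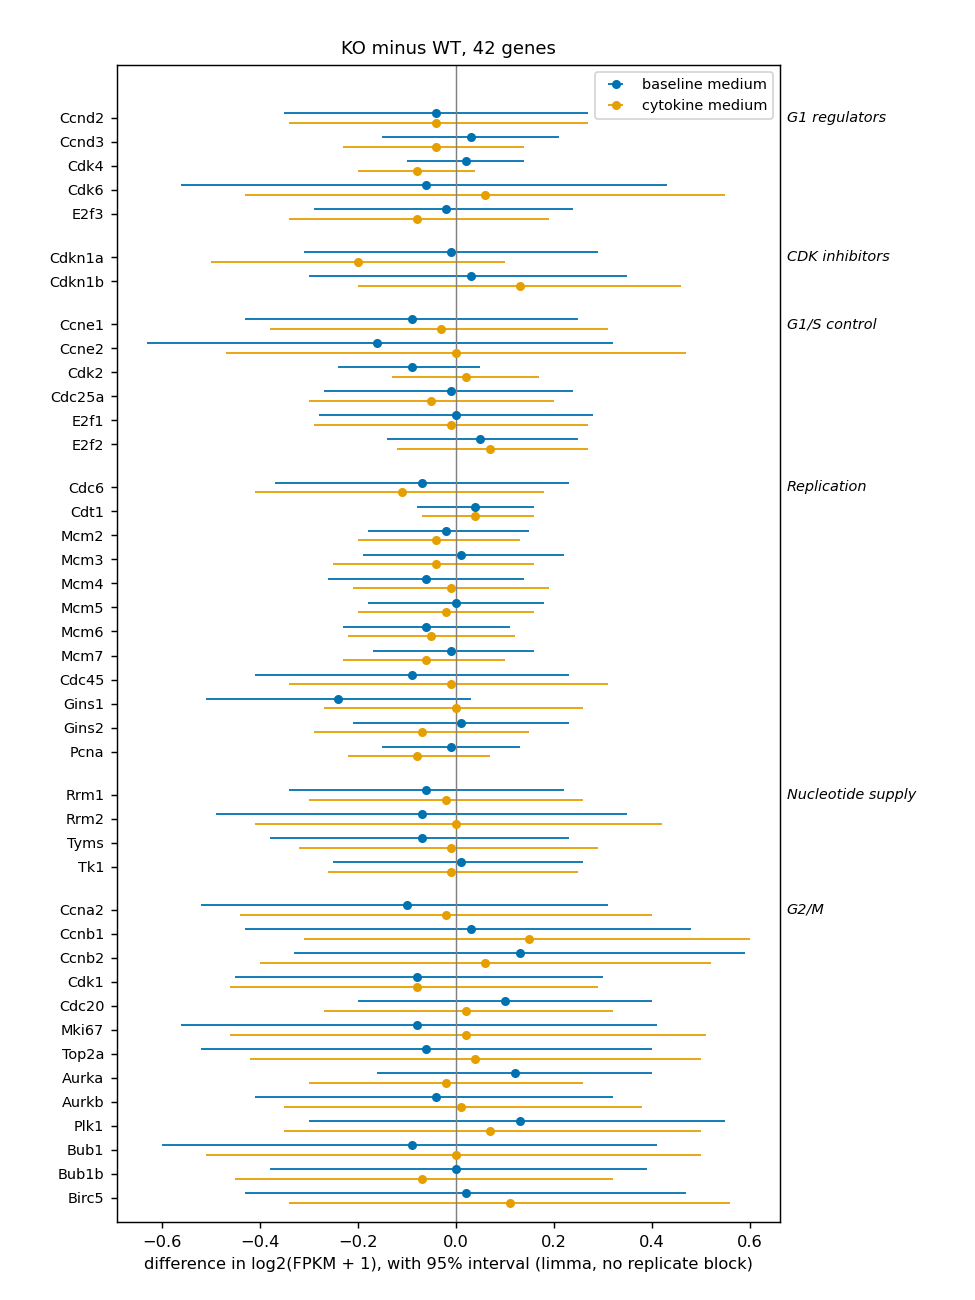
KO minus WT difference in log2(FPKM + 1) for the 42 genes by class, in baseline (blue) and cytokine medium (orange), with 95% intervals from limma without a block (n = 3 per group). The points lie between -0.24 and 0.15, and no gene passed the adjusted test.

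Genes of the wider cell cycle, from lists drawn up beside the 42, were also compared between media. Only listed genes that reached the expression filter are counted, and the DNA damage list below also holds Cdkn1a, which is among the 42. Of 45 further S phase genes, 0 rose and 4 fell in the fit without a block (13.2% of all genes passed), and 43 of 45 lay below 0 with a median of -0.10. The 4 were Rpa2 of the single-strand binding complex (log2 difference -0.23, adjusted p = 0.00451), Pold2 (-0.18) and Pole2 (-0.20) of the replicative polymerases and the nucleoside kinase gene Dck (-0.20). The paired fit passed 0 higher and 21 lower (46.7%, beside 26.7% of all genes), and without the libraries numbered 1 it passed 11 (24.4%, beside 17.8%). Of 61 further mitotic genes 1 fell, Smc4 of condensin (-0.66, SE 0.08, adjusted p = 0.000414), and the paired fit passed 7 higher and 11 lower (29.5%, near the 26.7% of all genes), with a median of -0.02 over the list, and without the libraries numbered 1 it passed 5 higher and 4 lower (14.8%, beside 17.8%).

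The largest increase called in these lists was that of a CDK inhibitor gene, Cdkn2d. Of 29 genes for pocket proteins, inhibitors and related factors, 3 rose and 1 fell, 13.8% beside 13.2% of all genes. Cdkn2d, which encodes the CDK4 and CDK6 inhibitor p19, averaged 22.9 ± 4.51 FPKM in WT baseline and 48.9 ± 8.34 in WT with cytokines, and 22.3 ± 4.07 and 50.6 ± 11.4 in KO (SD, n = 3; log2 difference 1.10, SE 0.13, adjusted p = 0.000325). Foxo1, a factor that holds T cells in quiescence, rose by 0.32, and Fbxw7, which marks cyclin E for destruction, by 0.25. Wee1, the kinase that inhibits CDK1, fell by 0.26 on the log2 scale.

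Of 25 DNA damage and checkpoint genes 1 rose and 3 fell, 16% beside 13.2% of all genes. Gadd45g rose by 0.52 while its relative Gadd45b fell by 0.61 on the log2 scale, and the checkpoint kinases Atm and Atr fell by 0.27 and 0.24. Of 16 growth signal genes 3 rose and 0 fell (18.8%): Il2, the T cell growth factor (0.91, SE 0.20, adjusted p = 0.0103), Il2ra, the alpha chain of its receptor (0.47), and Odc1, the first enzyme of polyamine synthesis (0.25). Il2 averaged 17.8 ± 5.98 and 32.2 ± 2.15 FPKM in the WT media and 15.0 ± 5.29 and 29.2 ± 7.32 in the KO media (SD, n = 3). In the paired fit, where 26.7% of all genes passed, 4 rose and 2 fell among the brakes (20.7%), 3 and 8 among the damage genes (44%), and 3 and 4 among the growth genes (43.8%). Without the libraries numbered 1 the paired fit passed 6 of 28 brakes (21.4%), 8 of 25 damage genes (32%) and 5 of 16 growth genes (31.2%), beside 17.8% of all genes, and the fit without a block passed 2, 1 and 2, beside 9.26%. In the genotype comparisons and the interaction 0 genes of these lists passed in limma, and 1 damage gene reached an unadjusted p under 0.05 with cytokines and 1 in the interaction.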

How the data were processed

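Per the submitters' processing notes, the authors used STAR 2.4.0f1, SAMtools 0.1.19, Cufflinks and HTSeq with mouse build mm9; which tool made which value is not given in the sources used here. The deposited values are FPKM per gene, 1 table per library, and are not counts. Steps between low values put the depth of the libraries at 0.731 to 1.025 of that of WT baseline 1, but only 29.1 to 34.2% of low genes lay within 2% of that ratio, so no reads were recovered. Entries that repeat a gene name (258 names per table) were summed here. Values were analysed as log2(FPKM + 1), keeping 10126 of 16728 genes above 0 that reached 1 FPKM in at least 3 of 12 libraries. limma 3.58.1 in R 4.3.3 fitted 4 group means with a trended prior, and p-values were Benjamini-Hochberg adjusted over all genes, at a threshold of 0.05. Replicate numbers come from the titles. Over all genes, deviations from group means correlated at 0.294 to 0.536 in the 6 pairs of the same genotype and number, so the numbers pair libraries within a genotype. Across genotypes in the same medium they were 0.074 to 0.523 (median 0.32), 1 of 6 pairs under 0.1, so pairing across genotypes did not meet the rule that every pair exceed 0.1; fits with either block are given. Alternatives were other pseudocounts, filters and scalings, no trend, each library left out, a block shared by both genotypes or within a genotype, and, chosen after seeing the data, numbers 2 and 3 only and a test of numbers with the media averaged. Member genes and all lists were chosen with earlier results of these data known. Genes were named by a rule: those called, the 2 with the smallest p in each class, and the highest and lowest of each class. The rule also took the 3 G1/S and 3 G2/M genes with the smallest p between numbers. Values per library are printed for some of these 22 genes and not for others. Ccnb2, Ccnb1, Birc5, Cdc20, Cdc45, Gins1, Mcm6 and other members outside the rule were singled out after their values were seen. Promoter windows came from RefSeq (GRCm38.p6), separately from the mm9 values. The fit of 4 group means was tested on simulated data in which libraries varied independently, so that test does not cover the paired fit. Python 3.11.15, pandas 2.3.3 and matplotlib 3.10.9 were used.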

Additional observations from a re-analysis of the deposited data

How the results depend on the processing

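Of the 42 genes, limma called 0 for cytokines in WT; this became 8 with the shared replicate block, 12 with the block within genotype, and, for numbers 2 and 3 only, 1 with the shared block and 4 with the block within genotype. In KO the count of 0 became 7, 13, 1 and 2 in the same order. The share of all genes passing moved as well. With the block within genotype it went from 4.93 to 15.5% in WT and from 4.27 to 11.8% in KO. Averaged over genotypes, the count of 1 became 14 and 22 with these blocks, 4 for numbers 2 and 3 without a block, and 6 and 15 with them; it was 0 with no filter, 2 with median-ratio scaling and 5 with quantile normalization, and 0 to 4 with 1 library left out. Over all genes the averaged share went from 13.2% to 25.9% and 26.7% with these blocks. For numbers 2 and 3 it was 9.26% without a block and 17.8% with the block within genotype. With 1 library left out, 908 to 1299 of all genes passed. Shares for the other alternatives are not given here. The 30 genes called between replicate numbers became 19 to 32 with 1 library left out (1607 to 3045 of all genes, 3015 with every library). They became 7 (9.42% of all genes) with the media averaged within genotype and number, which leaves fewer units. The cause was not tested. Genotype and interaction counts were 0 of 42 under every alternative run. For the 22 genes named by rule there were 3550 values under alternatives. Of these 3125 kept direction and side of the threshold, 81 newly passed, 9 no longer passed, and 335 changed sign. With all 12 libraries, a block, another filter or no variance trend could not change a direction. Those 335 passed neither as reported nor under the alternative, and were at most 0.16 as reported on the log2 scale. With 3 libraries a group and no read counts, small changes of low genes such as Bub1 were least resolved. The medium was not described in full, and replicate numbers may stand for animals, days or batches, which cannot be told apart.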
